A study of Arabidopsis thaliana with 16 samples.

Results

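A group of 6 REM genes of Arabidopsis thaliana, out of the 13355 genes named by at least 1 probe set here, was followed across 4 genotypes of developing gynoecia. They were VDD (AT5G18000), REM1 (AT3G19184), REM22 (AT3G17010), REM15 (AT5G57720), REM16 (AT3G53310) and AT3G46770, each with 1 probe set. The name REM1 has also been given to another REM gene, and here it stands for AT3G19184. All 6 were selected on values of these same 16 arrays, in the study's own calls for 5 of them and in an earlier analysis of the deposited signals for AT3G46770, as transcripts lower in seu or in ant and lower in seu ant than the effects of both mutations added together. Their differences between genotypes are therefore given as a description with standard errors and no p-values.

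REM stands for REPRODUCTIVE MERISTEM, a large plant-specific subfamily of the B3 superfamily, whose proteins carry one or more B3 DNA-binding domains. Many REM genes are transcribed in meristems and young floral organs, and single mutants in several of them show no obvious defect. VDD (VERDANDI) is an exception, since the female gametophyte needs it. SEUSS (SEU) encodes a transcriptional co-regulator that works through DNA-binding partners, and AINTEGUMENTA (ANT) encodes an AP2-domain transcription factor that promotes organ growth. Both act in the carpel margin meristem, the tissue along the fused carpel edges that gives rise to the ovules.

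The samples were gynoecia of floral stages 8 to 10, dissected by hand from plants grown in 16 h days at 24 °C. The groups were Col-0 wild type, plants carrying the seu-3 allele, plants carrying ant-1, and plants carrying both alleles, named seu, ant and seu ant (the double mutant) from here on. Each had 4 biological replicates, each a pool of 15 to 25 gynoecia on its own ATH1 array, so 1 value is an average over all cell types of the organ. In such a bulk sample, fewer cells of a type and less RNA per cell cannot be told apart, and ovule primordia are known not to form in seu ant. Values are deposited array signals on a linear scale, and differences are in log2 units.

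The arrays were of similar brightness, with a median signal of 153.1 to 188.6. All ant arrays (153.1 to 173.6) had a lower median than all wild-type arrays (179.2 to 188.6). Between 20.03% and 24.39% of probe sets were at or under the lower limit of 16 used here. Correlations between arrays of 1 genotype were 0.972 to 0.986. The SEU probe set, the check of the labels, gave signals of 786 to 978 in wild type and 749 to 943 in ant, against 181 to 340.0 in seu and 235 to 273 in the double mutant. The SEU probe set thus stayed well above that limit in the seu-3 arrays too. No probe set of ANT was analysed, so the ant label has no such check. Of 17 listed anther and tapetum genes, the 2 with a probe set, AMS and AT5G07230, had a summed signal of 12.4 to 70.5 in wild type and 14.5 to 43.6 in seu ant, with 16.3 to 45.7 in seu and 9.24 to 59.3 in ant, at or near the limit in every genotype. Of 18 listed carpel and ovule genes, 3 have a probe set. SPT, which encodes a bHLH factor of the carpel margin, marked the tissue, with 915 to 1372 in wild type and 365 to 534 in seu ant. It had 558 to 954 in seu and 645 to 994 in ant. The ovule genes INO and SPL were near the limit in all genotypes.

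In seu ant, every one of the 6 REM transcripts was lower than in all 3 other genotypes, with no overlap between arrays. The 4 seu ant arrays lay below all 12 other arrays for 6 of 6 genes, against 4.22% of all 22746 probe sets. The geometric mean left in seu ant was 3.65% of wild type for REM22, 8.73% for VDD, 12.3% for REM1, 18.2% for AT3G46770, 34.6% for REM15 and 40.9% for REM16. All 6 were called lower in seu ant than in wild type, where 11.4% of all probe sets were, a call being a limma adjusted p under 0.05 with a log2 difference over 0.35. Since the level in seu ant was part of what chose the genes, nothing is read from these counts.

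**Figure D1:**
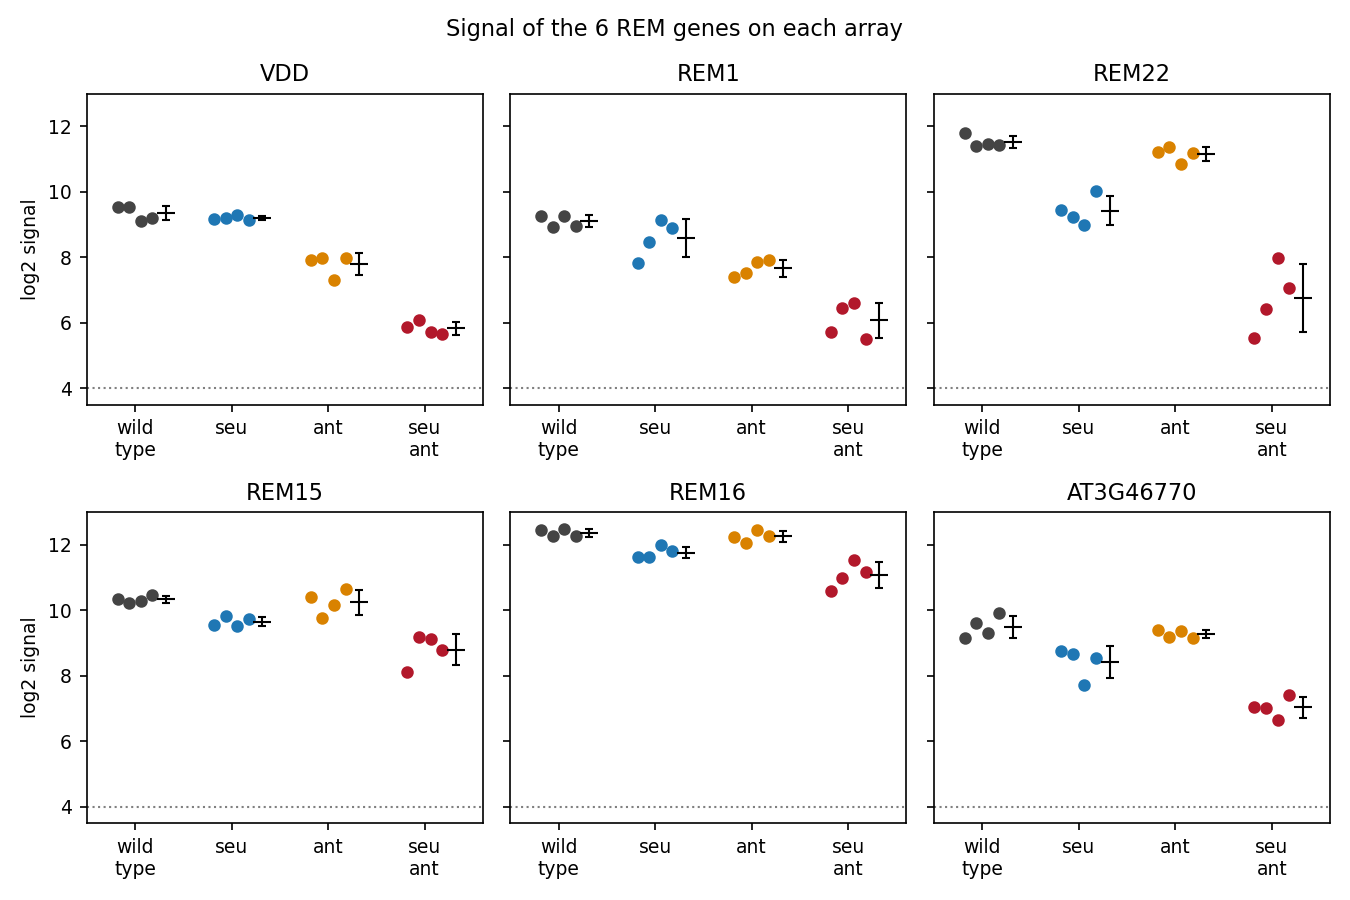
Log2 signal (vertical axis) of each REM gene on the 16 arrays, 1 panel per gene, with genotype on the horizontal axis. Points are arrays, black marks are the mean ± SD of 4 arrays, and the dotted line is the lower limit of 16 (log2 of 4). The seu ant points are the lowest in every panel. VDD and REM1 are also low in ant, and the other 4 genes are lower in seu than in wild type.

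In the single mutants the 6 genes fell into different patterns. VDD and REM1 were lower in ant, whereas REM22 and AT3G46770 were called lower in seu, and REM15 and REM16 were lower in seu by less. By the calls, 2 of the 6 were lower in ant than in wild type (3.03% of all probe sets were) and 2 in seu (0.914%). Without overlap between arrays, 3 were lower in ant (6.77% of all probe sets) and 4 in seu (4.13%). A lower level in seu or in ant was part of what chose the genes, so nothing is read from these counts either.

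VDD was low in ant and close to wild type in seu. Its signal in wild type was 737, 742, 555 and 589 on the 4 arrays. In seu it was 574, 584, 622 and 569, within the range of wild type, and in ant 243, 253, 158 and 253. The ant arrays lay below every wild-type and seu array, at 34.3% of the wild-type mean, and the seu arrays at 90.2%. In seu ant the signal was 58.4, 67.4, 52.5 and 50.3, the narrowest spread of the 6 genes in that genotype (SD 0.189, n = 4, log2). The log2 differences from wild type (standard error 0.15, n = 4 per genotype) were -0.15 in seu, -1.55 in ant and -3.52 in the double mutant. VDD was also the only member called higher in seu than in ant (1.87% of all probe sets were), with a log2 difference of 1.40, and the only one whose ant arrays all lay below the seu arrays (5.66% of all probe sets did so).

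REM1 followed the same order, with more spread. Wild-type arrays gave 613, 487, 615 and 495, and seu arrays 227, 356, 566 and 471. The seu arrays thus ran from far below the wild-type range to inside it (SD 0.572, n = 4, log2), and wild type and seu were not separated. In ant the signal was 167, 183, 231 and 243, below every wild-type array but overlapping the lowest seu array. In seu ant it was 52.7, 88.4, 97.3 and 45.6, below all others. The log2 differences from wild type (standard error 0.29) were -0.52 in seu, -1.43 in ant and -3.03 in the double mutant, with ant and seu ant called. The direct difference between seu and ant, 0.91, was not called.

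REM22 had the largest loss of the 6 genes in the double mutant and, of the single mutants, was low in seu. Its signal in wild type was 3530, 2726, 2834 and 2762, at percentile 95.8 of all probe sets. In seu it was 702, 606, 509 and 1035, all far below wild type, while in ant it was 2352, 2638, 1843 and 2326, all below the lowest wild-type array. In seu ant the 4 arrays gave 46.4, 84.8, 253 and 134, a level at percentile 44.4. The log2 differences from wild type (standard error 0.39) were -2.10 in seu, -0.38 in ant and -4.78 in the double mutant, a 27.4-fold loss, with seu and seu ant called. Between the single mutants the difference was -1.72 (seu minus ant), and REM22 was called lower in seu than in ant, alone among the 6 (1.06% of all probe sets were). That call ended without any 1 of the 4 ant arrays, without seu replicate 1, 2 or 3, and with no moderation of the variances. The spread in seu ant, with an SD of 1.04 (n = 4, log2), was the widest of any member in any genotype.

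AT3G46770, a B3-domain gene with no symbol in the reference table, had the same order as REM22. Signals were 569, 776, 636 and 965 in wild type and 435, 404, 210.4 and 372 in seu, without overlap. In ant they were 671, 581, 666 and 567, inside the wild-type range apart from 1 array slightly below it. In seu ant they were 132, 129.5, 101 and 171. The log2 differences from wild type (standard error 0.23) were -1.08 in seu, -0.22 in ant and -2.46 in the double mutant, with seu and seu ant called. The seu arrays lay below all ant arrays, as they did for REM22 and REM16 (3.95% of all probe sets), but the difference of -0.85 between them was not called, although it was with median centring, with only probe sets over the 40th percentile of mean signal, and with a trended, robust fit. Its call in seu ended without wild type replicate 2 or 4 or seu replicate 4.

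REM15 was, with REM16, called in neither single mutant. Its wild-type signals were 1285, 1203, 1254 and 1420, the tightest group of its 4 (SD 0.102, n = 4, log2). In seu it was 749.6, 905, 734 and 844, all below wild type. In ant it was 1347, 870.1, 1141 and 1591, on both sides of the wild-type arrays. In seu ant it was 279, 577, 562 and 439. The log2 differences from wild type (standard error 0.22) were -0.68 in seu, -0.09 in ant and -1.53 in the double mutant, and only the last was called, although seu and wild type did not overlap. Without seu ant replicate 1 the difference in seu was called too.

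REM16 was the most strongly hybridizing of the 6 genes and kept the largest share of its signal. Wild-type arrays gave 5604, 4918, 5716 and 4927, and seu arrays 3156, 3142, 4095 and 3581, without overlap. In ant the values of 4848, 4269, 5623 and 4898 overlapped those of wild type. In seu ant they were 1541, 2039, 2986 and 2319, and the level there still lay at percentile 93.3 of all probe sets, against 98 in wild type. The log2 differences from wild type (standard error 0.165) were -0.60 in seu, -0.11 in ant and -1.29 in the double mutant, with only seu ant called. In seu it was called as well with quantile normalization, with the same filter on mean signal, with a trended, robust fit, and without seu ant replicate 1 or 3. Signals of different probe sets are not compared as amounts of transcript.

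**Figure D2:**
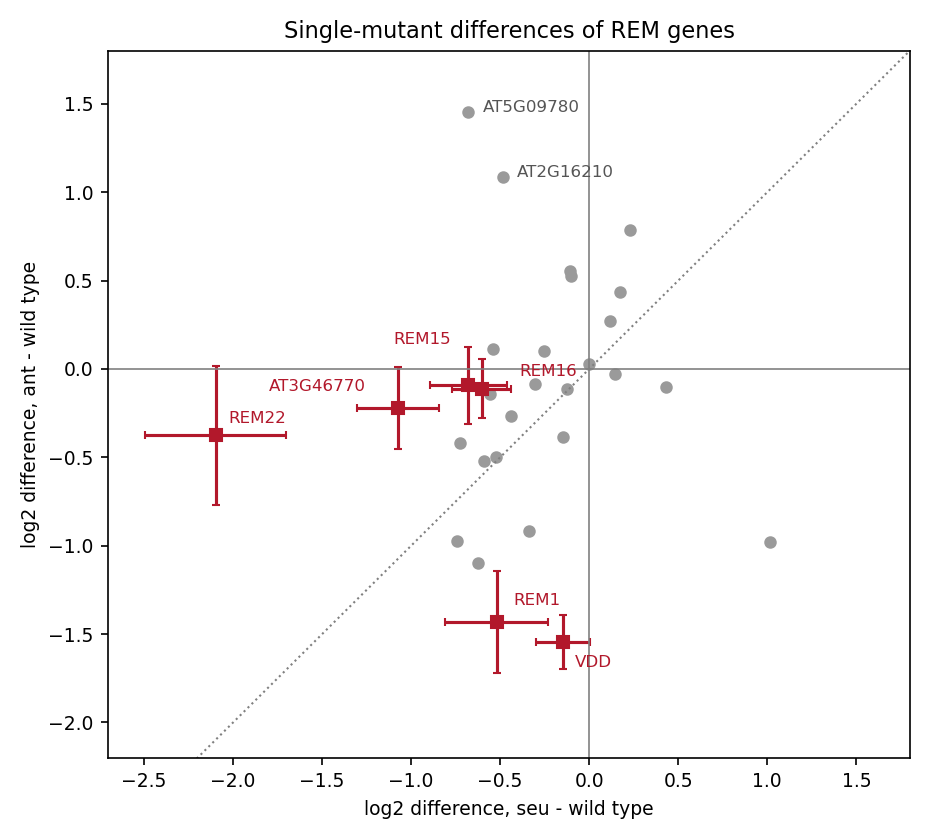
Log2 difference from wild type in seu (horizontal) and in ant (vertical), with red squares for the 6 REM genes (bars, standard error) and grey points for 24 other REM genes; the dotted line marks equal differences. VDD (-0.15 and -1.55) and REM1 (-0.52 and -1.43) lie below the line, and REM22 (-2.10 and -0.38) is farthest to the left.

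Set against the loss in the double mutant, the single-mutant losses took a similar share in each gene. For VDD and REM1 the difference in ant was 43.9% and 47.3% of the log2 difference in seu ant, and that in seu 4.21% and 17.2%. The other 4 genes had it the other way round. Their difference in seu was 43.7% (AT3G46770), 43.9% (REM22), 44.3% (REM15) and 46.8% (REM16) of that in seu ant, and their difference in ant only 6.08% to 8.95%. Over the 2597 probe sets called lower in seu ant, the larger of the single-mutant shares had a median of 45.9% with quartiles of 27% and 68.5%, and 14.5% of them had it between 40% and 50%. The smaller share had a median of 19.2%, with quartiles of 0.679% and 36.4%. Both shares are ratios of the differences that chose the genes, and selection below additivity limits how large they can be. They are a description, and nothing is read from the range of 40% to 50%, which encloses the value of every member.

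The same values can be read as loss of 1 regulator in plants with and without the other. The gap between these readings is by arithmetic the departure from additivity on which the genes were selected, so its direction is a description, and the sizes differ from gene to gene. Without SEU, removal of ANT (seu ant against seu) gave a log2 difference of -3.37 for VDD, -2.68 for REM22, -2.51 for REM1, -1.39 for AT3G46770, -0.85 for REM15 and -0.69 for REM16, and all 6 were called, as were 5.5% of all probe sets in that direction. With SEU present the same loss had given -0.09 to -1.55. The contrast was largest for REM22, with a difference of -0.38 for loss of ANT in plants with SEU and -2.68 in plants without it (standard error of each 0.39). For VDD it was smaller, with -1.55 and -3.37, but had the smaller standard error (0.15 for each difference). REM15, REM16 and AT3G46770, whose ant arrays overlapped wild type, likewise had seu ant arrays wholly below the seu arrays.

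Loss of SEU in plants without ANT (seu ant against ant) gave a log2 difference of -4.40 for REM22, -2.24 for AT3G46770, -1.97 for VDD, -1.60 for REM1, -1.44 for REM15 and -1.18 for REM16. All 6 were called, as were 9.32% of all probe sets. VDD had the smallest difference of the 6 genes in seu (-0.15, standard error 0.15), yet its seu ant arrays, at 50.3 to 67.4, lay far below its ant arrays, at 158 to 253. Both comparisons share the seu ant arrays, and the single-mutant comparisons share wild type, so their values are set side by side and not correlated.

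**Figure D3:**
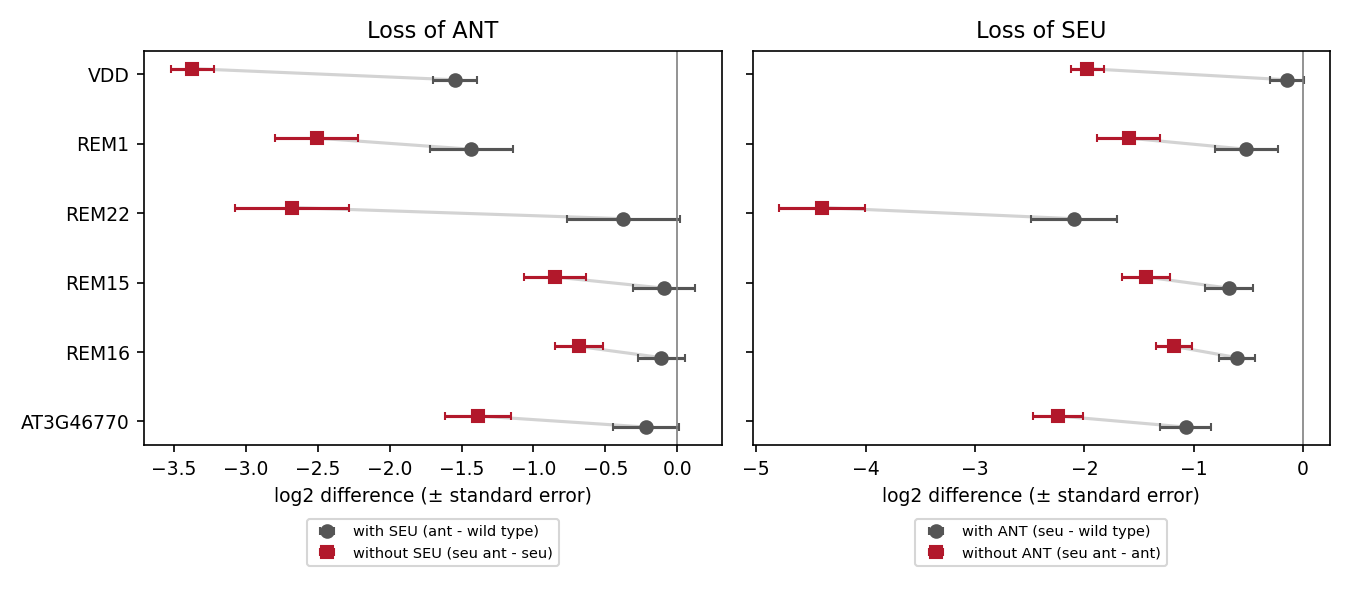
Log2 difference (± standard error) made by loss of ANT (left) and of SEU (right) for each REM gene, in plants with the other regulator (grey circles) and without it (red squares). Every red square lies to the left of its grey circle, for REM22 at -2.68 against -0.38 on the left and -4.40 against -2.10 on the right.

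Compared with an additive model, in which the log2 differences of the single mutants are summed, each gene was lower in seu ant than expected. The departure was -2.30 ± 0.56 (standard error) for REM22, -1.82 ± 0.22 for VDD, -1.17 ± 0.33 for AT3G46770, -1.07 ± 0.41 for REM1, -0.76 ± 0.31 for REM15 and -0.57 ± 0.23 for REM16. In signal, REM22 was expected at 530.4 and had a geometric mean of 108, 20.3% of the expectation. VDD was expected at 201 and had 56.8, or 28.2%. The other 4 genes had between 44.6% (AT3G46770) and 67.2% (REM16) of their expected signal.

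At an unadjusted p under 0.05, all 6 were called lower than additive, as were 10.1% of all probe sets in that direction. The authors give a cutoff of 0.05 for their own additive comparison and name no adjustment for it. With adjustment over all probe sets, REM22 and VDD remained, against 2.33% of all probe sets.

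This result depended on the scale. On the linear scale, where the single-mutant losses of signal are subtracted from wild type, none of the 6 genes was called lower than additive. REM22 lost so much signal in seu alone that the linear expectation in seu ant was 39.7, and the measured mean was 129.7, a difference of 90.02 ± 271 (standard error). For REM1 the linear expectation was 58.3, and the measured mean exceeded it by 12.7 ± 81.6. Signal cannot be negative, and both expectations were smaller than the standard error of the difference. REM22 and REM1 could therefore not be called lower on this scale. The linear differences of the others were -101 ± 53.7 for VDD, -107 ± 102 for AT3G46770, -291 ± 173 for REM15 and -891 ± 497 for REM16. On this scale 4 of the 6 genes were thus below the expectation, none of them called, and REM1 and REM22 were above it. Since the genes were selected on this departure, neither count is a test of it.

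**Figure D4:**
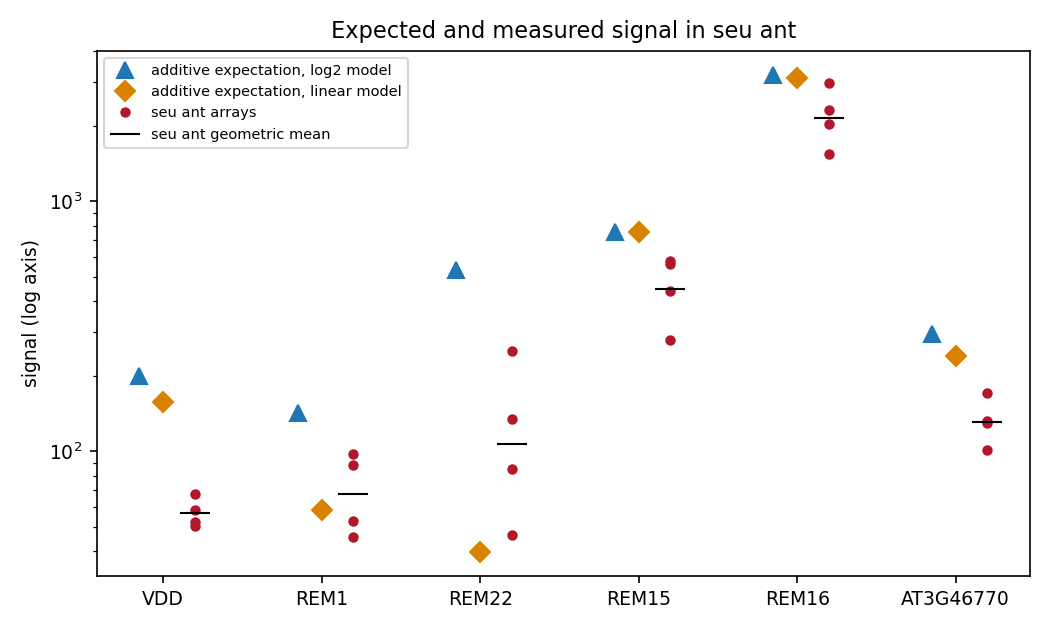
Signal in seu ant (vertical, log axis) for each REM gene: blue triangles, expectation from summed log2 differences; orange diamonds, expectation from summed linear differences; red points, the 4 arrays; black lines, their geometric mean. All arrays lie below the triangles, and for REM22 the linear expectation of 39.7 lies below all 4 arrays.

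Across the 16 arrays, the log2 signals of the 15 pairs of these genes had Pearson correlations from 0.678 to 0.959, with a median of 0.778. The points share the same arrays and the genotype differences that chose the genes, so this is a description. The highest were REM16 with REM22 (0.959), REM1 with VDD (0.938) and REM15 with REM22 (0.933). After the genotype means were removed, the median over the 15 pairs was 0.0385, with a range of -0.737 (REM1 with AT3G46770) to 0.665 (REM16 with REM22). The 3 pairs among REM15, REM16 and REM22 had 0.501 to 0.665, and REM1 with REM16 had 0.598. Replicate 1 of seu ant had the lowest signal of that genotype for REM15, REM16 and REM22, and replicate 3 the highest for REM16, REM22 and REM1. The order of the seu ant arrays was the same for REM16 and REM22. It was not shared by all members, since replicate 3 was the lowest for AT3G46770.

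Spread within genotypes differed between the genes as well. The pooled SD was 0.22 for VDD, 0.24 for REM16, 0.318 for REM15, 0.337 for AT3G46770, 0.425 for REM1 and 0.579 for REM22 in log2 units, where the median over all probe sets was 0.246. No array of any of these genes was at the limit of 16, and the lowest signal was 45.6, for REM1 in seu ant. REM22 and REM1 had the most spread in seu ant and in seu, respectively.

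Genes whose log2 signal was most like that of each REM gene over the 16 arrays were sought among 7467 genes. For REM22 these were IQD18, an IQ67-domain gene (r = 0.978), AT4G31020 (0.977) and AT1G68780 (0.974). REM16 was closest to chr31 (AT1G05490), a gene of the chromatin remodeller family (0.97), AT2G39870 (0.966) and AT2G41990 (0.96). REM15 shared AT2G41990 (0.949) with it, beside EMS1, a receptor kinase needed for tapetum formation (0.952), and AT1G03710 (0.946).

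For VDD the closest were AT3G10200 (0.962), CHR24 (0.952) and IAA18, a repressor of auxin response (0.946). REM1 was nearest to AT5G01660 (0.954), EME1A, an endonuclease subunit (0.947), and AT1G03720 (0.934). AT3G46770 was nearest to AT4G35070 (0.94), AT5G56590 and AT5G14610 (both 0.936). A correlation over 0.9 was held by 1% of the genes with REM22, 0.589% with REM16, 0.388% with REM15, 0.348% with VDD and 0.254% with each of REM1 and AT3G46770. All of these correlations include the genotype differences that chose the members. They describe a shared pattern over genotypes, and correlations with genotype means removed were not computed for these genes.

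Genes alike in pattern still differed in the size of their changes. AT3G10200 had differences from wild type of -0.36 in seu, -1.77 in ant and -3.07 in the double mutant, close to those of VDD, whereas CHR24 had -0.12, -0.39 and -1.01. Both AT1G68780, with -1.15, -0.41 and -3.93, and AT4G31020, with -0.82, -0.16 and -1.70, changed less in seu and in the double mutant than REM22.

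Other members of the REM subfamily are given for reference. The 6 genes were chosen for their losses on these same arrays, so nothing is read from the contrast between them and the rest of the subfamily. Of 45 other REM genes listed, 24 have a probe set named here. Their median difference was -0.28 in seu, -0.09 in ant and -0.23 in the double mutant, against -0.64, -0.30 and -2.74 for the 6 genes and -0.02, -0.02 and -0.03 for all probe sets. By the limma calls, 6 of the 24 were lower in seu ant (11.4% of all probe sets were) and none was higher. In seu 2 were called, both lower (0.914% of all probe sets), and in ant 4, of which 2 were lower (3.03%) and 2 higher (1.89%). Among the 24, 10 were at the limit of 16 on 1 array or more and 7 on at least 8 arrays, where a loss could not be measured.

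The largest loss among them was in AT4G31615, with 382, 517, 516 and 463 in wild type and 46.6, 136, 206 and 114 in seu ant. Its difference from wild type there was -2.08, with an adjusted p from limma of 0.000766 (standard error 0.34), and it was also below both single mutants (-1.33 against seu, limma adjusted p = 0.0242, and -1.11 against ant, limma adjusted p = 0.0348). AT4G31615 lies in a cluster of similar REM genes. Whether its probes also bind transcripts of its neighbours was not tested.

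AT5G25470 and AT5G58280 resembled VDD and REM1 in that ant was called and seu was not. AT5G25470 had -0.62 in seu, -1.10 in ant and -1.39 in the double mutant, the last with a limma adjusted p of 9.37e-05 (standard error 0.17). For AT5G58280 the differences were -0.34, -0.91 and -1.31 (standard error 0.16, limma adjusted p in seu ant 7.22e-05). Neither departed from additivity at an unadjusted p under 0.05. AT5G42700 had a difference of -0.998 in seu ant, with an adjusted p from limma of 0.00973 (standard error 0.24), and -0.30 in seu and -0.09 in ant.

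The remaining genes called lower than in wild type were either dim or changed little. AT4G33280, a dim gene with 85.8 to 109 in wild type, had -1.27 in seu ant, with an adjusted p from limma of 0.0491 (standard error 0.43). AT5G25475 had -0.44 in seu and -0.48 in seu ant, with adjusted p from limma of 0.0293 and 0.00282 (standard error 0.095). AT3G06160 was lower in seu only by the calls, at -0.56 (standard error 0.11, limma adjusted p = 0.0194), and had -0.25 in seu ant. Neither AT5G25475 nor AT3G06160 was called in seu with median centring, with only the compared genotypes fitted, without wild type replicate 1 or without seu replicate 3.

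A pair of the other REM genes rose in ant. None of the 6 did, but the 6 were chosen as lower in seu or in ant, so nothing is read from that contrast. AT5G09780 had 218, 221, 176 and 257 in wild type and 594, 689, 516 and 581 in ant, a rise of 1.45 (standard error 0.22, limma adjusted p = 0.00441). In seu ant it had 88.9, 148, 235 and 162, and its difference from seu, 0.15, was not called, with a departure from additivity of -1.30 (standard error 0.32, limma adjusted p = 0.0337). AT2G16210, named after its values were seen, rose by 1.08 in ant (standard error 0.14, limma adjusted p = 0.00171), and in seu ant its difference from wild type was 0.14.

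**Figure D5:**
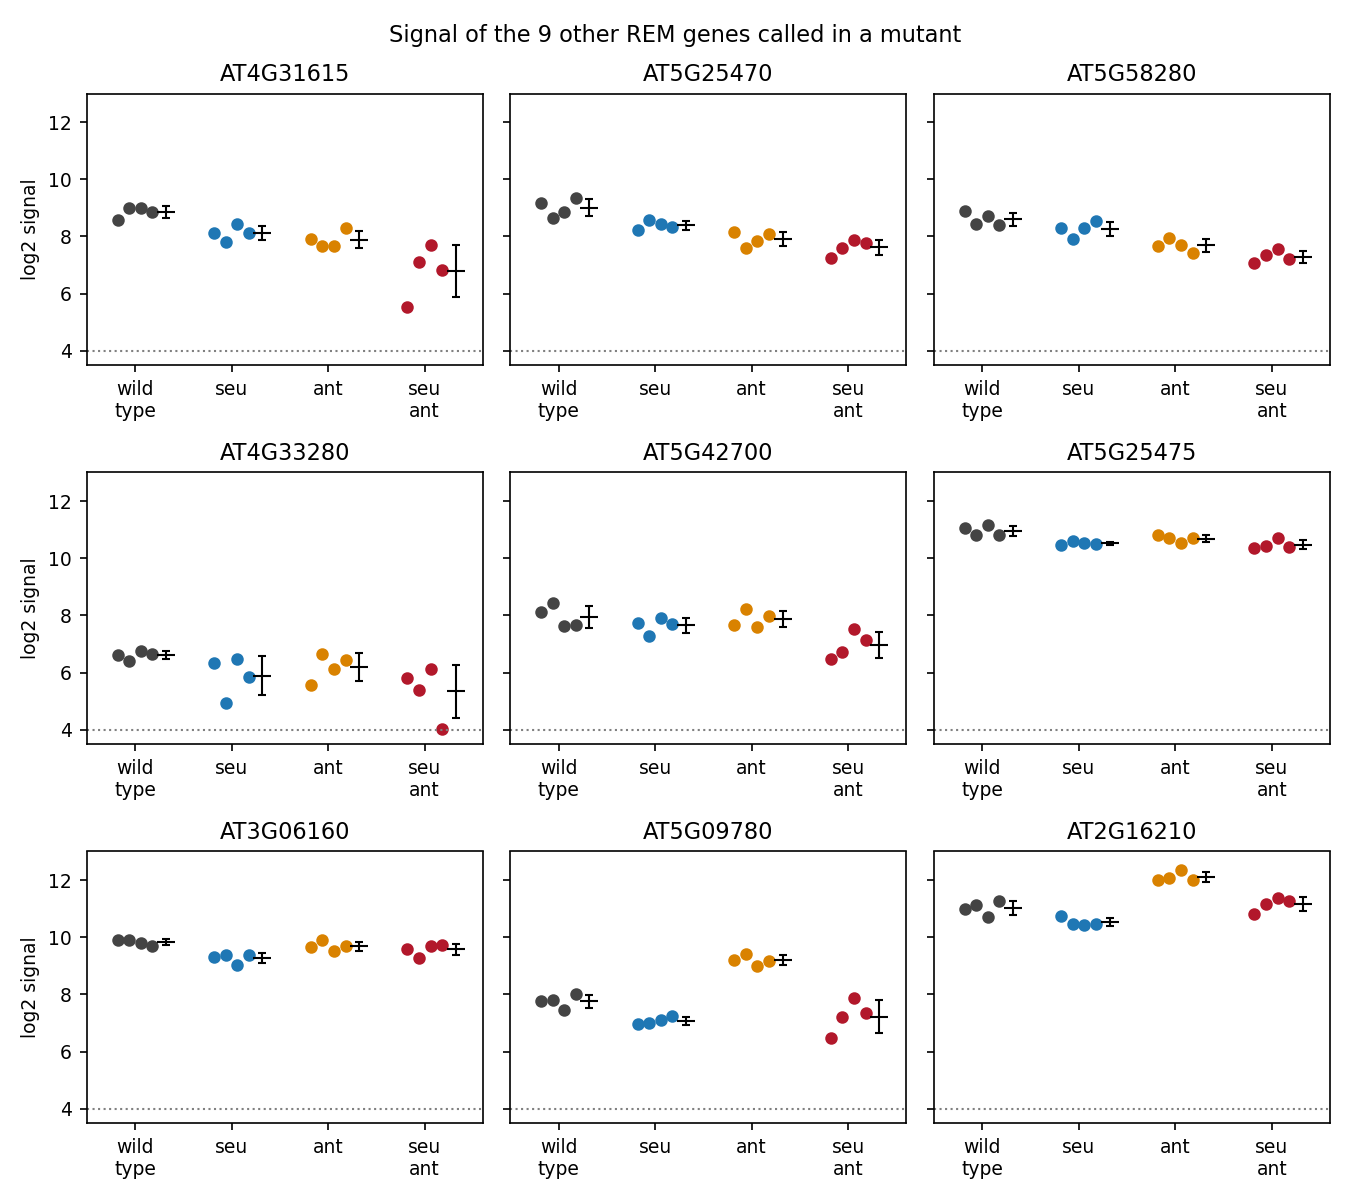
Log2 signal (vertical axis) on each array, by genotype (horizontal axis), of the 9 other REM genes called against wild type in at least 1 mutant. Points are arrays, black marks the mean ± SD of 4 arrays, and the dotted line the lower limit of 16 (log2 of 4). AT4G31615 shows the largest loss in seu ant, and AT5G09780 and AT2G16210 are highest in ant.

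Several strongly hybridizing REM genes showed no called difference in seu ant. AT4G34400 had 4578 to 5721 in wild type and 3010 to 5316 in seu ant, and AT3G06220 had 3318 to 3999 and 2695 to 4055. AT2G35310 had 2422 to 2859 and 2213 to 3118. The seu arrays of AT4G34400 (3186 to 3875) and AT3G06220 (2773 to 3248) lay below wild type, as for 4.13% of all probe sets. Those of AT2G35310 (2797 to 3041) overlapped it. None of these differences in seu was called, but AT4G34400 was called lower in seu than in ant (-0.66, limma adjusted p = 0.0325). These 3 were named after their values were seen.

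Position on the chromosome was read from the TAIR10.1 gene table. The listed REM gene nearest to VDD was AT5G18090, with 10 protein-coding genes between them, and AT5G18090 was called in no mutant (0.43 in seu, -0.10 in ant and 0.06 in the double mutant). REM1 had its nearest listed REM gene, VRN1, 20 protein-coding genes away, and VRN1 is not analysed here. The other 4 lay at least 59 protein-coding genes from any listed REM gene.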

How the data were processed

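Gynoecial RNA was hybridized to 16 ATH1 arrays, 4 per genotype. The authors deposited MAS5 signal intensities on a linear scale, as the submitters' processing notes name the tool, with a 2% trimmed mean of 500 on every array. For their tests the authors normalized with loess, and those values are not used here. No version of MAS5 and no genome build is named in those notes or in the methods.

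The 64 control probe sets were left out, lower signals were raised to a floor of 16, and values were put on a log2 scale. limma 3.58.1 (R 4.3.3, statmod 1.5.0) fitted 1 mean per genotype to 22746 probe sets, with Benjamini-Hochberg adjustment over all of them, and was tested on simulated data. The prior degrees of freedom were 1.04. Python 3.11.15 and matplotlib 3.10.9 drew the figures. The platform annotation pairs 13513 probe sets with 1 gene, 13436 of them in the reference table, and 503 with several. Arrays carry no read depth, and their number limits the precision.

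The members and gene lists were chosen with earlier results of these data known, and 3 loci were taken off the REM list from their entries in the gene table. Named were the 6 genes, up to 8 other REM genes called in a mutant (by size of the seu ant difference), SEU, floral tissue markers, and the 3 genes most correlated with each member among genes with a mean signal over the 40th percentile. Several other REM genes and regulators are not analysed here. The alternatives tried were other floors, normalizations, filters, moderation, additive scales and leaving out each array.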

Additional observations from a re-analysis of the deposited data

Results flagged for a closer look

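Of 60 groups of 4 arrays, for the 6 genes and the 9 other REM genes called in a mutant, 4 held an array far from the other 3, and chance alone gives about 1 in 20. REM22 in wild type replicate 1 had a log2 signal of 11.79, against 11.41 to 11.47 on the others. VDD in ant replicate 3 had 7.308, against 7.922 to 7.984, the lowest VDD value among the single mutants. AT3G06160 in seu replicate 3 had 9.024, against 9.324 to 9.379, and AT2G16210 in seu replicate 1 had 10.74, against 10.44 to 10.48.

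Loss of ANT acted differently on AT5G09780 with and without SEU. Its log2 change was 1.452 in plants with SEU and 0.1489 in plants without, a difference of -1.303 (limma adjusted p = 0.0337, n = 4 per genotype).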

How the results depend on the processing

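All 6 genes were called lower in seu ant than in wild type and than in ant, and 2 in ant against wild type, under every alternative run. The genes called lower in seu, 2 here, were 1 to 4 when 1 array was left out: AT3G46770 was lost without wild type replicate 2 or 4 or seu replicate 4, and REM15 and REM16 were added without seu ant replicate 1. With quantile normalization, the filter on mean signal or a trended, robust fit they were 3, REM16 being added. Between seu and ant, 2 genes became 3 with median centring, the filter on mean signal or a trended, robust fit (AT3G46770 added), 1 with no moderation and 1 to 2 with 1 array left out, REM22 being lost without any of the 4 ant arrays or seu replicate 1, 2 or 3 (without seu replicate 1, REM1 was called). Against seu, 6 became 4 when only the compared genotypes were fitted and 5 to 6 with 1 array left out. The 6 genes lower than additive were 0 on the linear scale, 2 with an adjusted p, and 5 to 6 with 1 array left out. On the linear scale REM22 and REM1 could not be called lower. The other REM genes called in seu, 2 here, were 1 with no floor, 0 with median centring, 4 after the filter on mean signal, 0 with only the compared genotypes, and 0 to 4 with 1 array left out, and those called in seu ant, 6 here, were 4 to 7 over all alternatives.

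Median centring moved the median of all probe sets to 0.139 in ant and -0.148 for non-additivity. No difference of the 6 genes moved by more than the replicate spread or reversed where it was called, and the differences of REM15 and REM16 in ant, not called, ran from -0.23 to 0.07 and from -0.21 to 0.05. No paired analysis was possible because the labels give the samples no replicate numbers shared between genotypes.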
